A study of Rattus norvegicus with 6 samples.

Results

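The integrated stress response and its amino acid programme were examined in cultured rat cardiomyocytes as a set of 36 genes picked by name from the 43035 features of the count table. The set held 13 regulators and effectors around the transcription factors ATF4 and CHOP, 7 enzymes of amino acid and one-carbon synthesis, 4 amino acid transporters and 12 aminoacyl-tRNA synthetases. A row stood under the member's own symbol for 35 of them, and Mars1 was found under its older symbol Mars. Of the 36 genes, 29 held enough counts to be tested. The gene Nupr1 was left out by the rule of choice because both replicate 1 libraries were high, with 1334, 53 and 67 counts in si-NC (the control) and 1496, 38 and 42 counts in si-DYRK1A.

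All cultures were neonatal cardiomyocytes of Sprague-Dawley rats, taken on postnatal day 1 according to the labels and within 1 to 2 days of birth according to the methods. One group of 3 libraries received a scrambled siRNA (si-NC) and the other group of 3 an siRNA against DYRK1A (si-DYRK1A), a protein kinase, and RNA of both was collected 48 h after transfection. Non-myocytes had been reduced by differential attachment only, and the labels count 3 biological replicates per group without saying which animals each came from, so p-values measure the spread between these cultures.

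The integrated stress response begins when one of several kinases phosphorylates the initiation factor eIF2, which slows general protein synthesis while letting the ATF4 mRNA be translated. ATF4 then turns on genes for making, importing and charging amino acids, together with the gene of the transcription factor CHOP (Ddit3) and a set of feedback regulators. Aminoacyl-tRNA synthetases load each amino acid onto its tRNA, and many of the cytosolic ones are ATF4 targets.

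Each library held 10325074 to 11921772 counts, of which 17.2% to 17.5% fell on rows that the authors had added for transcripts outside the annotation (added rows). Counts of the targeted gene showed no decrease and so could not serve as a check of the labels. Dyrk1a itself was given 3, 0 and 1 counts in si-NC and 2, 1 and 0 counts in si-DYRK1A. The added row over it held 777, 919 and 968 counts against 971, 851 and 944 counts, a log2 difference of 0.08 (SE 0.0575, edgeR adjusted p = 0.374). How much of Dyrk1a that row covers is not given here. The paper assessed the knockdown by immunoblot of DYRK1A protein in such cells at 48 h, which these counts do not measure. The direction of each difference given here rests on the labels, and si-DYRK1A means the libraries so labelled.

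Most of the tested members that differed were lower in si-DYRK1A. Of 29 tested, 16 fell and 2 rose at an edgeR adjusted p below 0.05, and 11 did not pass. Lower calls thus made up 55.2% of the tested members, where 7.19% of all 15513 features tested were called lower. Higher calls made up 6.90% of the members, where 8.03% of all features were called higher. In 19 members every si-DYRK1A library lay below every si-NC library, or 65.5%, where this was so for 15.3% of all features. The opposite order held for 3 members, or 10.3%, and for 16.2% of all features. The members were chosen with earlier results of these data known, so these shares describe the set and were not tested. The median log2 difference of the tested members was -0.15, or 9.78% lower, and that of all features was 0.0020. Summed over all members, CPM (counts scaled to library size, with TMM factors) ranged from 5735 to 5773 in si-NC and from 5012 to 5143 in si-DYRK1A, without overlap. In bulk RNA, fewer cells of a type and less RNA per cell cannot be told apart.

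**Figure D1:**
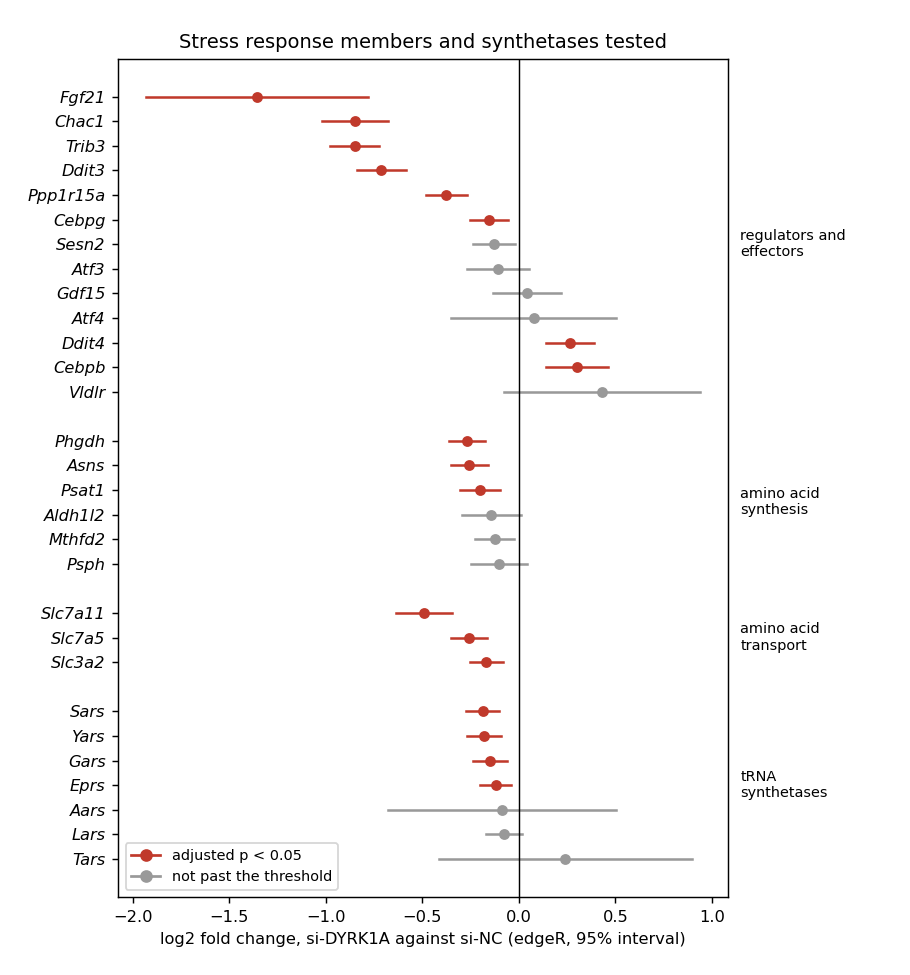
Log2 fold change (x axis, si-DYRK1A against si-NC) of the 29 tested members by role, with points for the edgeR estimate and bars for its 95% confidence interval. Red marks the 16 members called lower and the 2 called higher at an adjusted p below 0.05, and the largest decrease was that of Fgf21 at -1.36.

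The lowest values relative to si-NC were those of Fgf21, Trib3, Chac1 and Ddit3, all in the CHOP branch or downstream of ATF4. Trib3, a pseudokinase that binds the kinase AKT and holds back ATF4 and CHOP, had 106.8, 111.3 and 102.8 CPM in si-NC and 55.3, 59.9 and 62.7 CPM in si-DYRK1A. It therefore fell from 107.0 ± 4.27 to 59.3 ± 3.70 CPM (SD, n = 3 each), and the groups were far apart. Its log2 difference was -0.85 (SE 0.0603, 95% confidence interval -0.98 to -0.73, edgeR adjusted p = 3.22e-09), which placed it at rank 14 of all features by p. Trib3 (ENSRNOG00000007319) lies on the minus strand of chromosome 3 at 147813473 to 147819571 in Rnor_6.0.

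Ddit3, which encodes the pro-apoptotic transcription factor CHOP, had 103.5, 95.98 and 107.4 CPM in si-NC and 58.5, 63.9 and 65.0 CPM in si-DYRK1A. No si-DYRK1A library came near the lowest si-NC library, and the means were 102.3 ± 5.82 and 62.4 ± 3.47 CPM (SD, n = 3 each). The decrease of 39.0% corresponded to a log2 difference of -0.71 (SE 0.0614, 95% confidence interval -0.84 to -0.58, edgeR adjusted p = 4.80e-08). Ddit3 (ENSRNOG00000006789) lies on the plus strand of chromosome 7 at 70580198 to 70585084, and an added row on the opposite strand spans 99.1% of it. That row held 1 to 11 counts per library, and whether the authors' count used strand is not given.

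Chac1 encodes an enzyme that degrades glutathione and is induced by ATF4 together with CHOP or ATF3. Its levels were 54.6, 53.9 and 45.5 CPM in si-NC and 27.9, 28.8 and 28.6 CPM in si-DYRK1A, so that the treated libraries were nearly equal and all below the controls. The log2 difference was -0.85 (SE 0.0824, 95% confidence interval -1.02 to -0.68, edgeR adjusted p = 2.80e-07). Chac1 (ENSRNOG00000014387) is on the plus strand of chromosome 3 at 111160205 to 111163425.

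Fgf21, a secreted hormone of the fasting and mitochondrial stress response, was a low gene with 37, 39 and 53 counts in si-NC and 13, 17 and 19 counts in si-DYRK1A. On the scale of CPM these were 3.76 ± 0.596 and 1.46 ± 0.278 (SD, n = 3 each), and the groups did not overlap. Its log2 difference of -1.36 was the most negative of the members but also the least precise of their calls (SE 0.276, 95% confidence interval -1.93 to -0.78, edgeR adjusted p = 0.00155). Fgf21 (ENSRNOG00000020990) is on the minus strand of chromosome 1 at 101595579 to 101596822.

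The DNA upstream of 3 of these 4 genes holds an element of the kind that ATF4 binds as a partner of C/EBP proteins, and is shown because these genes moved most. The sequences are the 250 bases before the RefSeq gene start in the assembly GRCr8, each 5′ to 3′ on the strand of its gene, with capitals on the match to TGATGNAA or its complement TTNCATCA. They are chr3:161275534-161275783 (minus strand) for Trib3, chr3:126795881-126796130 (plus strand) for Chac1 and chr1:105221377-105221626 (minus strand) for Fgf21, while other positions given here are in Rnor_6.0.
Trib3: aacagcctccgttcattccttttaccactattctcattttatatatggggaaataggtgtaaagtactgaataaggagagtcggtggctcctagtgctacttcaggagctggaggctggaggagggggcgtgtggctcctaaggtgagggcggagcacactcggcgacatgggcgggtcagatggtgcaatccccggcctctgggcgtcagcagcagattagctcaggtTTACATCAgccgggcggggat
Chac1: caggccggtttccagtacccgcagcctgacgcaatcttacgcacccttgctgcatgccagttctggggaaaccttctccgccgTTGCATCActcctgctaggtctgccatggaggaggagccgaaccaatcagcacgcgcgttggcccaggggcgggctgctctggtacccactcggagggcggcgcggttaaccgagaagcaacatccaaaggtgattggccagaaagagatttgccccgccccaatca
Fgf21: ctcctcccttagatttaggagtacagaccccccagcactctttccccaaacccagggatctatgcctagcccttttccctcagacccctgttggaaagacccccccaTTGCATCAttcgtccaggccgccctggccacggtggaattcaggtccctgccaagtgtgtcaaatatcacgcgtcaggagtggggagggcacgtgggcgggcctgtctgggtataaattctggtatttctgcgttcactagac
The match began 21 bases before the start in Trib3, 167 bases before it in Chac1 and 143 bases before it in Fgf21. Among all 33469 RefSeq windows, which run from 250 bases before to 50 bases after a start, 1332 or 3.98% held TGATGNAA on either strand. The stricter form TTGCATCA, read on both strands and contained in the first motif, was in 266 windows or 0.795%. A window was given for 33 of the 36 members, with no entry for Atf3, Aldh1l2 and Gars, and 11 of the 33 held TGATGNAA. Among members called lower, only Trib3, Chac1, Fgf21 and Yars held it. The windows of Ddit3, Cebpg, Ppp1r15a, Asns, Psat1, Phgdh, Slc7a11, Slc7a5, Slc3a2, Sars and Eprs, also called lower, did not. Aars and Tars held it without a call, and Slc7a1, Cars, Nars, Mars1 and Iars held it but were not tested. The ERSE motif of the ATF6 arm, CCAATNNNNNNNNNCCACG read on both strands, stood in 22 or 0.0657% of all windows and in 0 members. With so few windows holding it, its absence among the members is not informative. These matches describe letters in a window and not binding.

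The other regulators moved less or not past the test. Ppp1r15a, the phosphatase subunit GADD34 that reverses eIF2 phosphorylation, had 140.3, 139.7 and 142.4 CPM in si-NC against 102.0, 111.4 and 111.8 CPM in si-DYRK1A. It fell by 0.38 on the log2 scale (SE 0.0509, edgeR adjusted p = 1.98e-05), without overlap. Cebpg, a dimer partner of ATF4, had 173.4, 168.3 and 170.2 CPM against 150.3, 159.3 and 150.5 CPM, and its log2 difference of -0.15 was close to the threshold (SE 0.0468, edgeR adjusted p = 0.0282). Leaving out si-NC replicate 1 gave Cebpg an adjusted p of 0.105, and leaving out replicate 1 or 3 of si-DYRK1A gave 0.103 and 0.122. With the replicate number as a block it was 0.0585, and by DESeq2 0.0525. The call of Cebpg was also lost by limma on FPKM.

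Both members that rose were regulators. Ddit4 encodes REDD1, an inhibitor of mTORC1, and had 74.2, 70.8 and 80.9 CPM in si-NC and 88.6, 90.02 and 92.8 CPM in si-DYRK1A. All si-DYRK1A libraries were above all controls, by 0.26 on the log2 scale (SE 0.0594, edgeR adjusted p = 0.00358). Cebpb, a transcription factor of the C/EBP family, had 51.7, 57.3 and 56.2 CPM against 59.1, 71.7 and 72.8 CPM, so that the groups were separated by a narrow gap. The log2 difference came to 0.30 (SE 0.0771, edgeR adjusted p = 0.0106). When si-NC replicate 1 was left out the adjusted p of Cebpb was 0.0666, and for replicates 2 and 3 of si-DYRK1A it was 0.0764 and 0.0762. The call of Cebpb was also lost by limma on FPKM. An opposite-strand added row spans 48.8% of Cebpb, and this row held 193 to 232 counts with a log2 difference of -0.06 (edgeR adjusted p = 0.776).

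The remaining 5 regulators did not pass the test. Sesn2, a stress-induced regulator of mTORC1, had 248.5, 247.9 and 242.7 CPM in si-NC and 206.0, 229.0 and 240.6 CPM in si-DYRK1A (log2 difference -0.13, edgeR adjusted p = 0.0987). Its groups did not overlap, and without si-DYRK1A replicate 3 its adjusted p was 0.0437. Atf3, a stress-induced repressor, had a log2 difference of -0.11 (edgeR adjusted p = 0.405), and the secreted cytokine Gdf15 one of 0.04 (edgeR adjusted p = 0.801). Gdf15 had 59.4 to 72.4 CPM in si-NC and 60.8 to 75.0 CPM in si-DYRK1A, with full overlap. Leaving out either replicate 3 turned this to -0.03 (si-NC) and -0.04 (si-DYRK1A), neither past the test. The lipoprotein receptor Vldlr and Atf4 itself are given below with the rows that cover them.

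**Figure D2:**
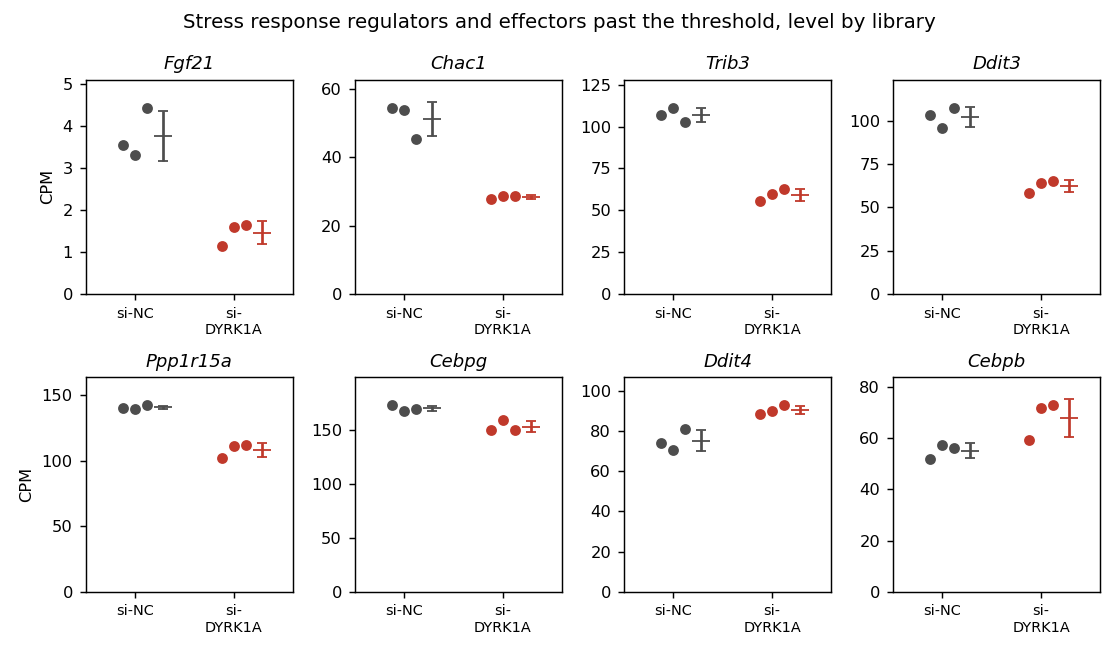
Level in each library (y axis, CPM) of the 8 regulators and effectors past the threshold, with points for the 3 si-NC and the 3 si-DYRK1A libraries and bars for the mean ± SD. Trib3, Ddit3 and Chac1 in si-DYRK1A all lay below the lowest si-NC library, and Ddit4 lay above the highest.

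Of the 6 tested genes of amino acid and one-carbon synthesis, 3 fell, and the median log2 difference of the 6 was -0.17. Lower calls were thus 50%, where 7.19% of all features were called lower. Phgdh, the first enzyme of serine synthesis, had 245.4, 257.3 and 252.2 CPM in si-NC and 202.0, 209.2 and 214.2 CPM in si-DYRK1A. It fell by 0.27 on the log2 scale (SE 0.0448, edgeR adjusted p = 0.000197). Asns, the asparagine synthetase and a classical ATF4 target, had 229.6, 242.3 and 231.0 CPM against 192.2, 191.7 and 204.0 CPM. The groups of both genes were separate, and Asns fell by 0.26 on the log2 scale (SE 0.0461, edgeR adjusted p = 0.000442). Psat1, the next enzyme of serine synthesis, had 181.3, 177.8 and 195.1 CPM against 164.2, 153.7 and 163.6 CPM, again without overlap. Its log2 difference was -0.20 (SE 0.0496, edgeR adjusted p = 0.00684), with an adjusted p of 0.0683 without si-DYRK1A replicate 2. The call of Psat1 was also lost by limma on FPKM (adjusted p up to 0.0968).

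Psph, the last enzyme of serine synthesis, and the mitochondrial folate enzymes Aldh1l2 and Mthfd2 did not pass. Their log2 differences were -0.10 (edgeR adjusted p = 0.369), -0.14 (edgeR adjusted p = 0.222) and -0.12 (edgeR adjusted p = 0.0920). In Aldh1l2 the groups did not overlap, with 41.6 to 45.5 CPM in si-NC and 37.6 to 40.5 CPM in si-DYRK1A. Mthfd2 passed without si-NC replicate 2 (adjusted p = 0.0259). Summed CPM of the synthesis genes was 971 to 993 in si-NC and 831 to 874 in si-DYRK1A.

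All 3 tested transporters fell, where 7.19% of all features were called lower. Slc7a11, the cystine importer that feeds glutathione synthesis, had 87.3, 84.7 and 86.3 CPM in si-NC and 69.0, 55.0 and 59.5 CPM in si-DYRK1A. Its log2 difference was -0.49 (SE 0.0706, 95% confidence interval -0.64 to -0.34, edgeR adjusted p = 5.24e-05), a decrease of 28.9%. Slc7a5, the light chain of the large neutral amino acid exchanger LAT1, had 585.0, 569.3 and 540.6 CPM against 457.3, 467.4 and 492.1 CPM. The lowest control was thus above the highest treated library, and the log2 difference was -0.26 (SE 0.0443, edgeR adjusted p = 0.000289). Slc3a2 encodes the heavy chain that pairs with both of these light chains. It had 533.7, 569.6 and 553.4 CPM against 477.8, 497.2 and 499.3 CPM, with a log2 difference of -0.17 (SE 0.0421, edgeR adjusted p = 0.00814). By limma on FPKM the adjusted p of Slc3a2 was 0.0509 or 0.0513 with the filter on low values and 0.0897 without it. The arginine and lysine carrier Slc7a1 had 0, 1 and 1 counts in si-NC and 3, 3 and 2 counts in si-DYRK1A and was not tested.

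Among the 12 aminoacyl-tRNA synthetases, 7 were tested and 4 fell, each by a small amount. These 4 were 57.1% of those tested, where 7.19% of all features were called lower. Sars, which charges serine, had 465.8, 454.4 and 453.8 CPM in si-NC and 416.5, 390.2 and 398.6 CPM in si-DYRK1A (log2 difference -0.19, SE 0.0421, edgeR adjusted p = 0.00340). Yars, for tyrosine, had 264.2, 263.7 and 273.3 CPM against 238.4, 234.8 and 234.1 CPM (log2 difference -0.18, SE 0.0429, edgeR adjusted p = 0.00573). Both were separated with no overlap. Gars, for glycine, fell from 412.1 ± 10.1 to 371.7 ± 8.78 CPM (SD, n = 3 each; log2 difference -0.15, SE 0.0422, edgeR adjusted p = 0.0189). Eprs, which charges glutamate and proline in 1 protein, fell from 1077 ± 10.3 to 989.9 ± 13.7 CPM (SD, n = 3 each; log2 difference -0.12, SE 0.0385, edgeR adjusted p = 0.0359). The groups of Gars and Eprs did not overlap either.

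The calls of Gars and Eprs depended on single libraries, and both were lost by limma on FPKM. Gars had an adjusted p of 0.0545 when si-NC replicate 1 was left out, and of 0.119 and 0.0517 for replicates 2 and 3 of si-DYRK1A. That of Eprs was 0.0789 without si-NC replicate 1, and 0.0557, 0.144 and 0.143 without si-DYRK1A replicates 1, 2 and 3. With the replicate number as a block Eprs had an adjusted p of 0.0855. Lars, for leucine, had 229.0 to 244.0 CPM in si-NC and 222.9 to 230.1 CPM in si-DYRK1A (log2 difference -0.08, edgeR adjusted p = 0.283), with overlap.

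Aars, for alanine, was uneven among the controls, with 55.7, 32.8 and 52.1 CPM in si-NC and 44.1, 42.1 and 46.0 CPM in si-DYRK1A. Its log2 difference was -0.09 (SE 0.222, edgeR adjusted p = 0.860). Without si-NC replicate 2 this was -0.29 with an adjusted p of 0.0146, and without si-NC replicate 1 it was 0.05, so that its direction depended on which control was counted. Tars, for threonine, had 17 to 32 counts per library and a log2 difference of 0.24 (edgeR adjusted p = 0.684).

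**Figure D3:**
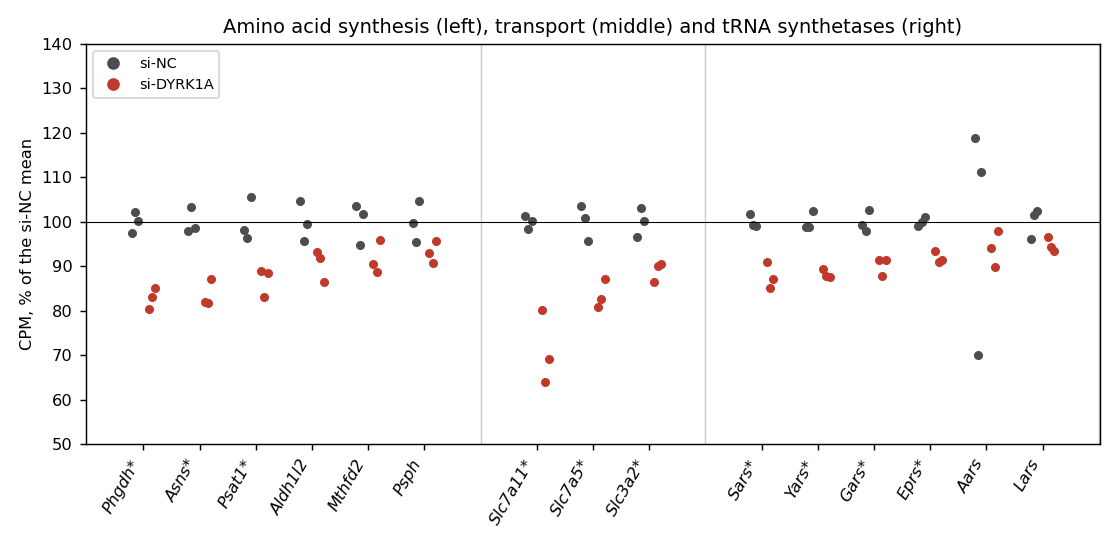
Level in each library (y axis, CPM as a percent of the si-NC mean of the gene) of amino acid synthesis, transport and synthetase genes, with points for the 3 si-NC (grey) and the 3 si-DYRK1A libraries (red) and asterisks on genes past the threshold. Phgdh, Asns, Slc7a11, Slc7a5, Sars and Yars had no overlap between groups, while the si-NC libraries of Aars ran from 32.8 to 55.7 CPM.

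By role, TGATGNAA stood in the windows of 7 of 11 synthetases, 3 of 12 regulators, 0 of 6 synthesis genes and 1 of 4 transporters (Slc7a1). No test of this difference was made. Sites outside the window of a RefSeq start were not counted, so 0 matches do not show that a gene lacks the element. The sites of the synthetases are shown to compare them with the upstream sequences above, each with 8 flanking bases where the window held them, 5′ to 3′ on the strand of the gene in GRCr8, with capitals on the match.
Aars: cttgagcaTTGCATCAgccgagcc
Aars: gggtcactTTTCATCAgagcgctc
Cars: cgccgcggTTGCATCAgattctgg
Nars: aggtgatcTGATGCAAcgcttcag
Mars1: cgttccggTTGCATCAgcgtgggc
Iars: tgtcagtaTTGCATCAcctccaga
Tars: gcgtcccgTTGCATCAgctggtta
Yars: agctcagcTGATGCAAcctg
The first site of Aars lies 112 bases before the start, and those of Nars, Mars1, Iars and Tars lie 14, 17, 24 and 27 bases before it. The second site of Aars and those of Cars and Yars lie 9, 17 and 38 bases after it. Of these 7 genes, Yars fell, Aars and Tars did not pass the test, and Cars, Nars, Mars1 and Iars had 0 counts in all 6 libraries.

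Several members were counted low or not at all, and added rows lie over most of them. An added row on the same strand covered at least 50% of 10 members, and 6 of these 10 had fewer than 10 counts in every library. Of the 26 members without such a row, 1 had so few counts, which was Slc7a1, and an added row of 0 to 5 counts covers 37.5% of it. Cars, Nars, Mars1 and Iars were at 0 counts, Wars had 1 to 7 counts and Shmt2, the mitochondrial serine hydroxymethyltransferase, 0 to 1. Aars, which is also covered, had 388 to 623 counts. The share of low rows was not counted over all features, and the cause of the low counts was not tested. Counts at these rows may not give the level of the genes.

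Atf4, the centre of the response, had only 77, 55 and 101 counts in si-NC and 83, 63 and 96 counts in si-DYRK1A, with overlap and a log2 difference of 0.08 (SE 0.205, 95% confidence interval -0.35 to 0.50, edgeR adjusted p = 0.860). Its sign changed with single libraries, to -0.14 when si-NC replicate 2 was left out and to -0.04 for si-DYRK1A replicate 3. The added row over Atf4 added 2, 4 and 5 counts in si-NC and 7, 5 and 6 in si-DYRK1A, and the sum of both gave 0.11 (edgeR adjusted p = 0.769). Vldlr had 2.21 to 3.18 CPM in si-NC and 3.30 to 4.67 CPM in si-DYRK1A, a log2 difference of 0.43 (edgeR adjusted p = 0.272). Its added row was far deeper, with 456, 488 and 506 counts against 529, 452 and 527 counts, and gave 0.08 (edgeR adjusted p = 0.507).

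None of the added rows over synthetases that could be tested passed the test. The row over Wars held 43, 27 and 59 counts in si-NC and 36, 30 and 35 counts in si-DYRK1A (log2 difference -0.33, edgeR adjusted p = 0.465). That over Nars held 35, 40 and 49 against 45, 27 and 57 counts (0.08, edgeR adjusted p = 0.877). The row over Tars was erratic, with 35, 52 and 14 against 63, 8 and 11 counts (-0.29, edgeR adjusted p = 0.901). The row over Cars also spans 6 other annotated genes and held 30, 32 and 25 against 20, 28 and 17 counts (-0.39, edgeR adjusted p = 0.437). For Mars1 the row held 2, 9 and 1 against 3, 11 and 8 counts, and those over Aars, Iars and Shmt2 held 0 counts.

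**Figure D4:**
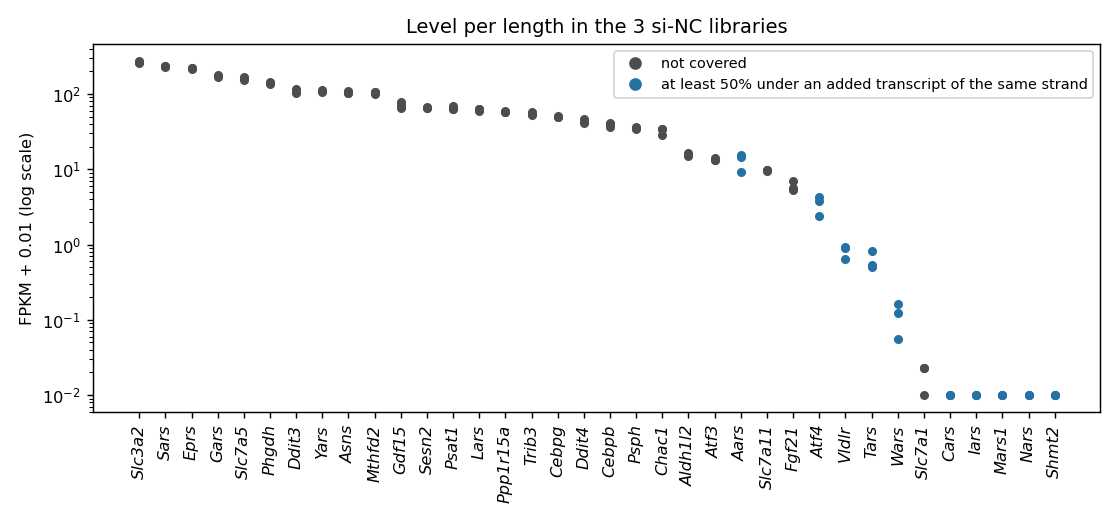
Level of each member in the 3 si-NC libraries (y axis, FPKM + 0.01 on a log scale, members in order of level), with blue points for members that an added row of the same strand covers over at least 50% of their length. The highest of the 10 covered members is Aars at a mean of 13.0 FPKM, and Cars, Nars, Mars1 and Iars are at 0 FPKM.

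Per unit of gene length, the members spanned a wide range in si-NC. Levels in FPKM were highest for Slc3a2 (267), Sars (233), Eprs (220), Gars (173) and Slc7a5 (162). Ddit3 stood at 109.9 FPKM, above Asns (105), Ppp1r15a (57.8), Trib3 (54.9) and Chac1 (32.5), and fell to 66.9 FPKM in si-DYRK1A. Slc7a11 (9.62 FPKM) and Fgf21 (5.96 FPKM) were low. The row of Atf4 stood at 3.50 FPKM, but an added row of its strand covers 100% of it. This value may therefore not give the level of Atf4. The members with the largest log2 differences, Fgf21, Trib3, Chac1 and Ddit3, thus lay below the most abundant transporters and synthetases in level.

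Other genes of the pathway were taken from lists that, like the members, were chosen with earlier results of these data known. Of 20 further ATF4 and CHOP targets, 11 were tested, 3 fell and 0 rose, and the median log2 difference was -0.14. Lower calls made up 27.3%, where 7.19% of all features were called lower. Those that fell were Jdp2, a repressor of the AP-1 family (log2 difference -0.41, edgeR adjusted p = 0.000134), and the neutral amino acid carriers Slc1a5 (-0.24, edgeR adjusted p = 0.00267) and Slc1a4 (-0.14, edgeR adjusted p = 0.0365). The call of Slc1a4 was lost when any library but si-NC replicate 3 was left out (adjusted p 0.0760 to 0.138), and also with the replicate block (0.0748), by DESeq2 (0.0534), by limma-voom (0.0503) and on FPKM (0.0814 to 0.118). Aldh18a1, Slc38a2, Atf5 and Nfil3 were at 0 counts, and Cth and Bbc3 had no row. Added rows were not looked up over genes of this and the following lists. A count of 0 there does not show that a gene was absent.

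Upstream of ATF4, the list of eIF2 kinases and eIF2 machinery gave 12 tested genes of 16, with 0 lower and 1 higher. The 1 higher call made up 8.33%, near the 8.03% of all features called higher. The gene that rose was Eif2s3, a subunit of eIF2 (log2 difference 0.17, edgeR adjusted p = 0.00482). The kinase genes Eif2ak3 (PERK), Eif2ak1 (HRI) and Eif2ak4 (GCN2) had log2 differences of 0.0025, -0.13 and 0.09, and none passed. When si-NC replicate 2 was left out, Eif2ak1 had an adjusted p of 0.0423, and with library size only 0.0436. Its groups did not overlap, si-DYRK1A being lower. The kinase gene Eif2ak2 (PKR) had 0 to 2 counts and was not tested. Eif2b4 was at 0 counts. Transcript levels do not measure the phosphorylation by which these kinases act.

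Of 11 other cytosolic synthetases and partners, 10 were tested and 0 fell, with a median of 0.02. Farsb, a subunit of the phenylalanine enzyme, rose (log2 difference 0.19, edgeR adjusted p = 0.00980), or 10% of those tested. Over all features 8.03% were called higher. Of 18 mitochondrial synthetases, 11 were tested, 0 fell and 3 rose (27.3%), with a median of 0.14. Among them were Ears2 (0.48, edgeR adjusted p = 0.00861) and Rars2 (0.38, edgeR adjusted p = 0.00573). The call of Farsb was lost when si-DYRK1A replicate 3 was left out (adjusted p = 0.0705). The mitochondrial gene Lars2 was called lower when si-NC replicate 3 was left out (-0.26, adjusted p = 0.0292). Cars2 and Mars2 were at 0 counts. Whether the lists differ from each other was not tested.

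In the ATF6 and XBP1 arms of the unfolded protein response, 14 of 17 genes were tested, with a median log2 difference of 0.03. Lower calls made up 7.14% and higher calls 14.3%, where 7.19% and 8.03% of all features were so called. Lower calls numbered 1, then 3 with RLE or library size only and 0 on FPKM or without si-DYRK1A replicate 2. Every si-DYRK1A library lay below every si-NC library in 28.6% of those tested, and above in 21.4%. Over all features these shares were 15.3% and 16.2%. Sel1l, an adaptor of the degradation machinery of the endoplasmic reticulum, fell (-0.18, edgeR adjusted p = 0.00655), with an adjusted p of 0.0737 when si-DYRK1A replicate 2 was left out. Herpud1, another protein of that machinery, was not called (edgeR adjusted p = 0.0555) but passed when replicate 3 of si-NC or of si-DYRK1A was left out (adjusted p = 0.0499 and 0.0463). It also passed with RLE (0.0463), library size only (0.0204) and the other count filters (0.0322 and 0.0499). Edem1 was not called (edgeR adjusted p = 0.0572) but passed with RLE (0.0478) and library size only (0.0199). Sdf2l1 (0.45, edgeR adjusted p = 2.11e-05) and Manf (0.25, edgeR adjusted p = 0.000267), both luminal stress-induced proteins, rose. The chaperone BiP, from Hspa5, had a log2 difference of 0.03 (edgeR adjusted p = 0.663). Calr, Xbp1 and Atf6 were at 0 counts.

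**Figure D5:**
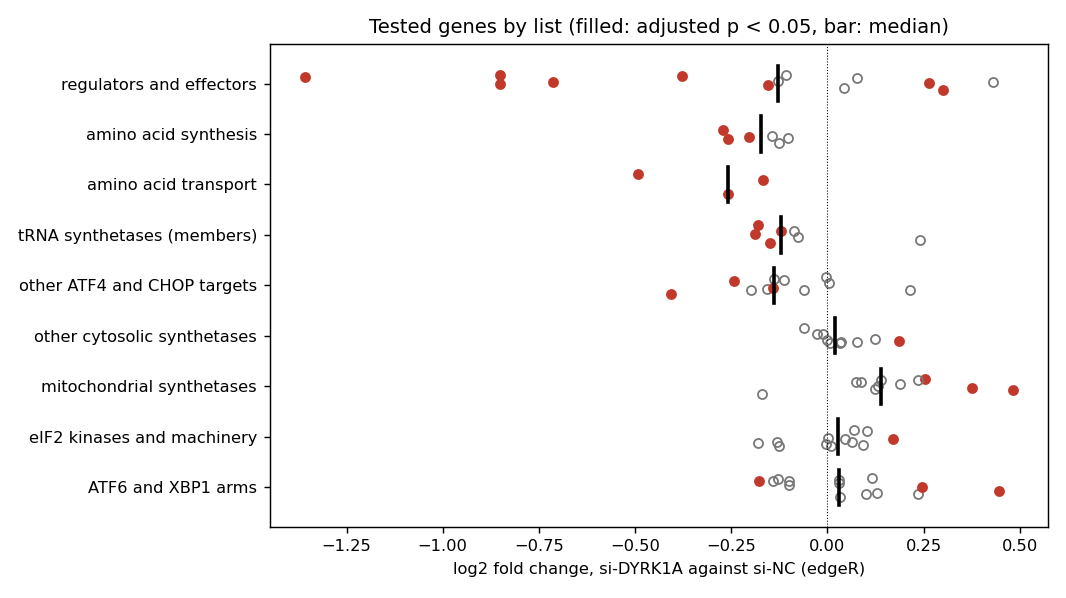
Log2 fold change (x axis, si-DYRK1A against si-NC) of each tested gene by list, with 1 point per gene, filled where the adjusted p was below 0.05, and a bar at the median of each list. The medians of the 4 member lists lie between -0.26 and -0.12, and that of the mitochondrial synthetases at 0.14.

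Markers of cell types moved as well, where 7.19% of all features were called lower and 8.03% higher. Added rows were not looked up over the markers. Markers at 0 counts are therefore not shown to be absent, and sums may miss their reads. Summed CPM of the endothelial markers was 170 to 189 in si-NC and 138 to 144 in si-DYRK1A, and 3 of 6 tested fell, while Pecam1 had no row. The angiopoietin receptor gene Tek (log2 difference -0.75, edgeR adjusted p = 3.50e-07) and its relative Tie1 (-0.43, edgeR adjusted p = 0.00125) kept their calls whichever library was left out. The cadherin gene Cdh5 (-0.31, edgeR adjusted p = 0.0129) lost its call for si-NC replicate 1 and si-DYRK1A replicates 1 and 3 (up to 0.0668). Vwf was not called (edgeR adjusted p = 0.0719) but passed when si-NC replicate 3 was left out (0.00920) and with the replicate block (0.0423).

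Cardiomyocyte markers summed to 15499 to 15864 CPM in si-NC and 16577 to 16990 CPM in si-DYRK1A, with 3 of 6 tested higher, which were Actn2 (log2 difference 0.31), Actc1 (0.13) and Pln (0.15). This count was 2 by DESeq2, RLE, upper quartile or limma-voom, and 1 with library size only, the replicate block or filtered FPKM, and 0 on unfiltered FPKM. The call of Pln was lost when any library but si-NC replicate 3 was left out (adjusted p up to 0.217), and that of Actc1 for si-NC replicate 1 and si-DYRK1A replicates 2 and 3 (up to 0.168). Myl3 was called lower when si-NC replicate 3 was left out (0.0390), with library size only (0.0298) and with no filter on low counts (0.0317). The defining genes Tnni3, Myh6, Myh7 and Myl2 were at 0 counts and Tnnt2 at 11.2 and 10.2 CPM, so these could not check the labelled cell type.

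Fibroblast markers summed to 21531 to 26245 CPM in si-NC and 20368 to 21107 CPM in si-DYRK1A, a sum of which Col1a1 held the largest share. Of 6 tested, 5 had a positive log2 difference, and Postn (1.10, edgeR adjusted p = 2.39e-05) and Lum (0.59, edgeR adjusted p = 1.21e-08), both matrix proteins, rose. Col1a1 had a log2 difference of -0.37 (edgeR adjusted p = 0.0869). It was called lower by DESeq2 (0.0123), limma-voom (0.00447) and edgeR with the replicate block (0.00353), and when si-NC replicate 2 or 3 was left out (7.22e-05 and 0.00177). Pdgfra and Ddr2 were at 0 counts. Macrophage markers summed to 197 to 200 and 202 to 229 CPM, with Cd68 at 0. Of 5 tested, Lyz2 (log2 difference 0.41, edgeR adjusted p = 0.000178) and Cd163 (0.87, edgeR adjusted p = 0.00415) were higher. The other tested markers had negative log2 differences without a call, Ptprc (-0.21), Csf1r (-0.13) and Adgre1 (-0.54). Cd163 lost its call for si-DYRK1A replicate 2 (0.0624). Smooth muscle markers summed to 631 to 638 and 637 to 659 CPM, a sum of which Cnn1 held the largest share. Acta2, Myh11 and Smtn were at 0. Of 3 tested, 1 was higher, which was Myocd (log2 difference 0.29, edgeR adjusted p = 0.00273). Its call was lost on FPKM, with or without the filter. Cnn1 (-0.0071) and Tagln (-0.66) had negative log2 differences without a call. The part of these shifts in the decrease of the stress response genes was not tested.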

How the data were processed

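RNA-seq of 6 libraries was analysed, 3 si-NC and 3 si-DYRK1A, grouped by the sample labels. The authors aligned reads with HISAT2 (build Rnor_6.0) and deposited raw read counts per gene, on which the main test was run. The authors also deposited FPKM values, counts scaled by gene length and library, which were used for levels and alternatives. The submitters' processing notes list Bowtie 0.12.2 and the build mm8 with no role. The labels name a TruSeq kit and the methods a NEBNext kit. Not given in the sources used here are the counting tool, the annotation release and whether strand was used. Every column was matched to a sample, and 0 columns of per-sample values were left unused.

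Counts were tested in R 4.3.3 by edgeR 4.0.16 with its quasi-likelihood F-test (TMM normalization, robust fit, filterByExpr with a minimum count of 10 in 3 libraries and a total of 15) over 15513 features, with two-sided p-values adjusted by Benjamini-Hochberg over all of them at a threshold of 0.05. The biological coefficient of variation was 8.82%. Member counts were also summed with those of rows added on the same strand, where these covered 50% or more of the member without touching a further annotated gene. Cars, Mars1 and Iars were not summed because their rows span other genes. As alternatives, DESeq2 1.42.0, scaling by upper quartile, by RLE or by library size alone, other count filters, a block on replicate number, omission of each library, limma-voom and limma 3.58.1 on log2(FPKM + 1) or log2(FPKM + 0.1) were run, with FPKM above 0.5 in 3 libraries or unfiltered. Scripts were tested on simulated data.

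All 36 members were named, and of the pathway and marker lists the called genes, those at 0 and a few defining genes, except for an item that is not reported here. Members and lists were chosen with earlier results of these data known. Promoter windows came from RefSeq (GRCr8). Mars1 and Gcn1 were matched by older symbols. No genome sequence of Rnor_6.0 was used here.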

Additional observations from a re-analysis of the deposited data

How the results depend on the processing

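The direction of the median of the members held in every alternative, from -0.15 in the reported test to -0.17 with library size only, and from -0.17 to -0.14 with a library left out. Of all features, 2360 were called by edgeR, 1571 by DESeq2, 1197 and 1162 by limma on log2(FPKM + 1) and log2(FPKM + 0.1), and 667 without the FPKM filter, and 1614 to 2210 with a library left out. Members called lower numbered 16, 15 by DESeq2, 18 with library size only, 11 on both filtered FPKM scales, 9 without that filter and 13 to 18 with a library left out. Members called higher numbered 2, then 1 on filtered FPKM, 0 without the filter and 1 to 2 with a library left out. With added rows summed, 16 members were lower (13 to 18 with a library left out) and 2 higher (1 to 2). FPKM alternatives were not run on the sums. Synthetases called lower were 4, then 2 on filtered FPKM, 1 without the filter and 2 to 5 with a library left out. With library size only, 44.3% of calls over all features were higher against 52.8%, and the median of all features moved to -0.02.

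Ddit3, Trib3, Chac1, Ppp1r15a, Fgf21, Asns, Phgdh, Slc7a5 and Yars kept their calls in all 18 alternatives. Cebpb, Cebpg, Psat1, Slc3a2, Gars and Eprs lost theirs by limma on FPKM, with or without the filter. Without the FPKM filter the adjusted p of Ddit4 was 0.0752, that of Slc7a11 0.0539 and that of Sars 0.0513, and transporters called lower were 3, then 2 on filtered FPKM and 1 without the filter. Values that changed sign were those of genes without a call, with a library left out, Atf4 (-0.14 to 0.26), Gdf15 (-0.040 to 0.12) and Aars (-0.29 to 0.052), and with its added row summed, Tars (-0.058). The causes were not tested.

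The labels link samples of the 2 groups only by replicate number. Nupr1, however, was high in both replicate 1 libraries, with 1334 and 1496 counts against 38 to 67 in the others. Whether same-numbered cultures had a common source is not given. Same-numbered samples had correlations of their deviations of 0.068, -0.022 and -0.0086. Those of differently numbered samples ran from -0.063 to 0.072. With the number as a block, 2269 features were called, and 14 members were lower and 2 higher, Cebpg and Eprs having lost the call. Among genes of the other lists, Slc1a4, Actc1 and Pln lost it (adjusted p 0.0748, 0.0604 and 0.0699) and Col1a1 and Vwf gained it (0.00353 and 0.0423). With 3 libraries a group, differences of genes under about 100 counts were estimated with wide intervals.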
